A study of Mus musculus with 6 samples.

Results

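The 10 genes described here encode the Myc family and the Max network of mouse cells, namely Myc, Mycn, Mycl, Max, Mxd1, Mxd3, Mxd4, Mxi1, Mnt and Mga. They were taken by gene symbol from a table of 54715 genes, each symbol matched 1 row, and all 10 passed the filter on low counts that 16758 genes passed. RNA was sequenced from advanced embryonic stem cells (ASCs), a mouse pluripotent state between naive embryonic stem cells and primed epiblast stem cells. There were 3 wild type (WT) samples and 3 Bdh2-knockout (Bdh2-/-) samples. All 6 came from cells derived from a 129/sv female mated with a GOF/GFP male, and they carried a GFP reporter under Oct4 control. Both genotypes were grown in ABCL medium, which holds activin A, BMP4, the GSK3 inhibitor CHIR99021 and leukemia inhibitory factor. Bdh2 encodes a short-chain dehydrogenase linked to siderophore synthesis and iron handling, and it was disrupted with CRISPR/Cas9 near its start codon. The study chose for its further work 1 knockout ASC clone with a deletion on both alleles. The labels do not say whether all 3 sequenced knockout samples came from it, and an effect of the clone and an effect of Bdh2 loss cannot be told apart. The labels do not say whether the 3 samples of a genotype were separate cultures, so the p-values measure the spread between these samples, which may be technical.

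Myc, Mycn and Mycl are basic helix-loop-helix leucine zipper factors that bind DNA only as a pair with Max. Myc-Max dimers bind E-boxes and recruit acetyltransferases and elongation factors to genes of growth, ribosome synthesis and the cell cycle. The Mxd proteins, Mxi1 and Mnt compete for Max, bind the same E-boxes and recruit Sin3 and histone deacetylases. Mga, the largest Max partner, works in the Polycomb complex PRC1.6, which is known for keeping germline genes silent in embryonic stem cells. Myc and Mycn are known for sustaining the growth of mouse pluripotent cells, where Wnt and LIF signaling act on Myc, and GSK3 marks the Myc protein for degradation.

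The E-box that Myc-Max, Mxd-Max and Mnt-Max dimers share was searched for in RefSeq promoter windows (GRCm38.p6, 250 bases before to 50 after a gene's start). The letters searched were CACGTG, which read the same on both strands. Windows were listed for 9 of the 10 genes, and Myc had none in the table. Max, Mnt and Mxd4 held an E-box, 3 of 9 genes, against 8.09% of all 27025 genes with a window and 11.5% of the 11478 that were also tested for expression. Letters bound by E2F factors were searched for as well and matched in Mycn and Mxd3, 2 of 9 genes, against 3.39% of all genes. Those of TCF/LEF and STAT factors matched in 0 of the 9. The stretch around each E-box is shown 5′ to 3′ in the direction of the gene, with the E-box in capitals, because these are places where the network's own dimers could meet its members.
Max: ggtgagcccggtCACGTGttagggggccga
Mnt: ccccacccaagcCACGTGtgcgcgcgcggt
Mxd4: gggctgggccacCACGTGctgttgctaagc
Distances are to the first base of the E-box, and coordinates are those of the stretch shown. The Max E-box began 3 bases before the RefSeq start and so ran across it (chr12:76962234-76962263, minus strand). That of Mnt began 123 bases before its RefSeq start (chr11:74830789-74830818, plus strand), and that of Mxd4 219 bases before its own (chr5:34187912-34187941, minus strand). The start of Max listed with the counts is 76962201, and the Max E-box lies wholly before that start. A match is a description of these letters and not a binding site, and no binding was measured.

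Bdh2 itself (chr3:135281221-135304426, plus strand) had 203, 193 and 209 reads in the WT samples and 164, 136 and 129 in the knockout samples. It was at 57.7% of the WT level, a log2 fold change of -0.79 ± 0.12 (SE, adjusted p = 2.46e-04, edgeR quasi-likelihood test). The samples held 18927748 to 28333541 counted reads each, so that 3 reads stood for 0.106 to 0.158 CPM, reads scaled to a common library total. Pluripotency markers were present in all 6 samples, and the ranges of their summed level overlapped, with 10 genes including Pou5f1, Sox2 and Nanog at a summed CPM between 7375 and 7492 in WT and between 7470.5 and 7631 in knockout ASCs. This sum covers moves in both directions, since 5 of the 10 were called higher and 1, Dppa5a, lower. The summed CPM of 11 primitive endoderm markers was 241 to 264 in WT and 613 to 677 in knockout ASCs, and all 11 were higher. Liver transcripts stood out in some samples, since 14 hepatocyte markers led by Alb summed to 543, 339 and 55.1 CPM in the WT samples and to 47.1, 164 and 32.5 CPM in the knockout samples, with none at 0. All results were recomputed without the WT samples 1 and 2, and each network gene, and each list gene named by rule, that then lost its call is given with its value.

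Across the network, 4 genes were higher in Bdh2-/- ASCs (Myc, Mycn, Mnt and Mxd3), 2 were lower (Mycl and Mxi1), and Max, Mga, Mxd1 and Mxd4 did not pass the test. Among all 16758 genes tested, 21.0% were called higher and 20.8% lower, so that a share of 4 and 2 in 10 is to be read against a background in which 41.7% of genes were called. In this bulk RNA, fewer cells that express a gene and less of its RNA per cell cannot be told apart. The median log2 fold change of the 10 genes was 0.09, beside -0.01 over all genes tested. Levels are given as FPKM, the CPM divided by the gene length in kilobases, scaled between samples by the trimmed mean of M values (TMM), so that genes of different length can be compared.

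**Figure D1:**
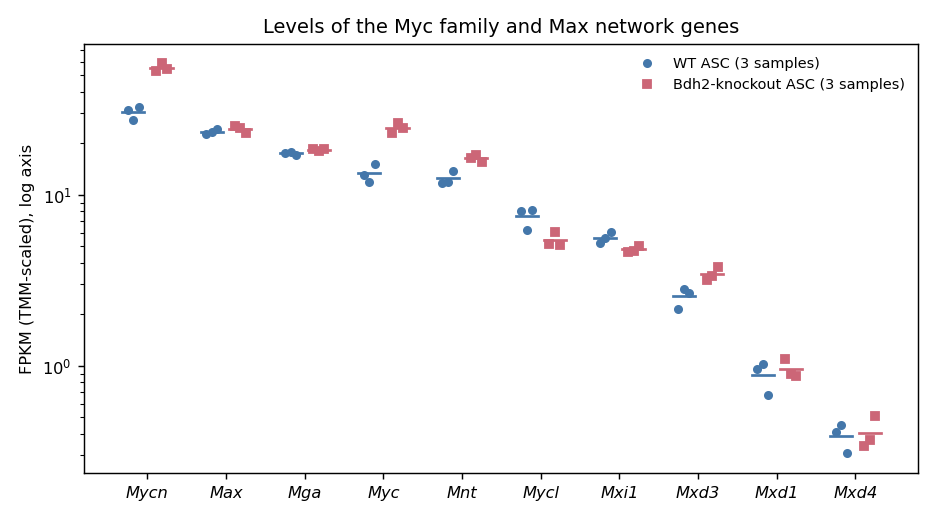
FPKM (TMM-scaled, log axis) of each network gene in the 3 WT ASC samples (circles) and 3 Bdh2-knockout ASC samples (squares), ordered by the WT mean, with a line at each mean. Myc and Mycn lie higher in every knockout sample, Mycl lies lower, and the levels of Max, Mxd1 and Mxd4 overlap between genotypes.

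Mycn (ENSMUSG00000037169, chr12:12936093-12941914, minus strand), known for its role in the early embryo, was the most abundant gene of the network. Its FPKM was 31.2, 27.2 and 32.7 in the WT samples and 52.8, 58.5 and 54.0 in the knockout samples. The groups did not overlap, and 52.4% of all genes tested had groups that did not. The mean rose from 30.4 ± 2.84 to 55.1 ± 3.01 FPKM (SD, n = 3), 1.81-fold, with a log2 fold change of 0.86 ± 0.07 (SE) and an edgeR adjusted p of 1.12e-06. Leaving out any 1 of the 6 samples, this log2 fold change lay between 0.79 and 0.92.

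Myc (ENSMUSG00000022346, chr15:61985391-61990374, plus strand), the founding member of the family, rose by nearly the same factor from a lower level. Its FPKM was 13.1, 11.9 and 15.1 in the WT samples and 22.9, 26.3 and 24.5 in the knockout samples, with no overlap. The mean went from 13.4 ± 1.6 to 24.5 ± 1.71 FPKM (SD, n = 3), 1.84-fold, with a log2 fold change of 0.87 ± 0.08 (SE) and an edgeR adjusted p of 3.12e-06. The Myc gene is covered by no other annotated exon, nor are Mycn, Mycl, Max, Mxd1, Mnt and Mga, so overlapping genes do not blur these counts.

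Mycl (ENSMUSG00000028654, chr4:122995652-123002485, plus strand), the third paralog, moved the other way. It measured 8.08, 6.24 and 8.12 FPKM in WT and 5.18, 6.09 and 5.12 FPKM in knockout ASCs. The lowest WT sample lay close above the highest knockout sample. The mean fell from 7.48 ± 1.07 to 5.46 ± 0.548 FPKM (SD, n = 3), a log2 fold change of -0.45 ± 0.10 (SE, edgeR adjusted p = 0.00258). This call was lost when the change was tested against a minimum fold of 1.2 (adjusted p = 0.0644).

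Set together, the 3 paralogs summed to 52.4, 45.4 and 55.9 FPKM in the WT samples and to 80.9, 90.9 and 83.6 FPKM in the knockout samples. Mycn made up 58.5 to 60.0% of that sum in WT and 64.4 to 65.3% in knockout ASCs. The share of Myc was 25.1 to 26.9% and then 28.3 to 29.3%, while that of Mycl was 13.8 to 15.4% and then 6.12 to 6.70%. The ratio of Mycn to Myc stayed within 2.17 to 2.38 in WT and 2.21 to 2.31 in knockout samples, ranges that overlap. The ratio of Mycn to Mycl was 3.86 to 4.36 in WT and 9.60 to 10.6 in knockout samples. These are ratios of RNA, and protein was not measured here.

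**Figure D2:**
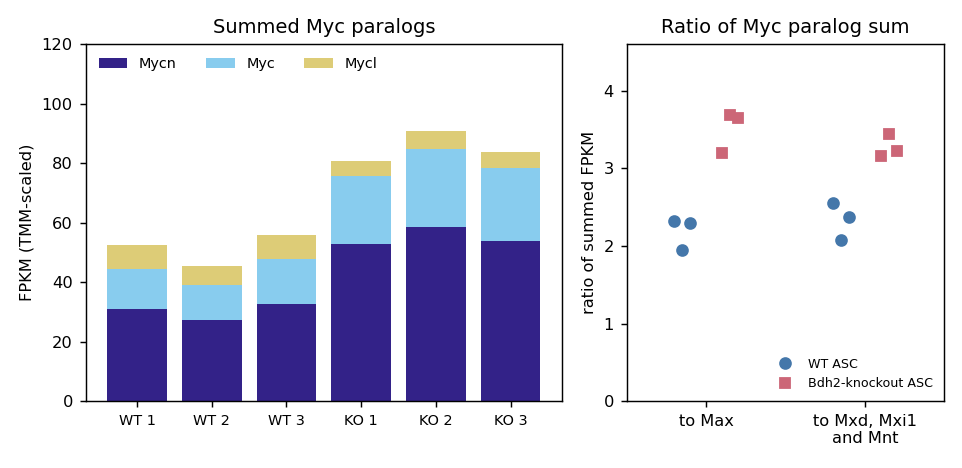
Left, FPKM (TMM-scaled) of Mycn, Myc and Mycl stacked for each sample; right, the ratio of that sum to the FPKM of Max and to the summed FPKM of Mxd1, Mxd3, Mxd4, Mxi1 and Mnt, a point per sample. The sum lies between 45.4 and 55.9 in WT and between 80.9 and 90.9 in knockout samples, and both ratios are higher in every knockout sample.

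Across the 6 samples and 16758 genes tested, the profile closest to that of Myc, by the root mean square difference of centred log2 CPM, was that of Mycn (0.0435), followed by Zfp628 (0.0450) and Zscan10 (0.0453). The profile of Mycn was closest to those of Zscan10 (0.0296), Mb21d2 (0.0381) and Usp29 (0.0401). With 6 samples of 2 genotypes, this distance largely picks genes with a similar fold change. The closest genes had log2 fold changes from 0.79 to 0.91, so closeness is no sign of shared control.

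Genes near Myc and Mycn moved less than they did or the other way. Within 1 Mb of Myc the single other gene tested was Pvt1, a long noncoding RNA gene that starts 52.6 kb away and is known for its link to Myc. Pvt1 measured 14.8, 13.6 and 11.8 CPM in WT and 10.8, 8.18 and 9.26 CPM in knockout ASCs, a log2 fold change of -0.50 ± 0.12 (SE, edgeR adjusted p = 0.00374). This call was lost without the WT samples 1 and 2, where the value was -0.32 (adjusted p = 0.137). Of the 6 genes tested within 1 Mb of Mycn, 3 were called higher, with log2 fold changes of 0.16 for Ddx1, 0.27 for Nbas and 0.23 for Fam49a (these 3 were named after their values were seen). Near other network genes the neighbours differed. Of 18 genes tested within 1 Mb of Mycl, 7 were higher and 1 was lower, Trit1 at 20.9 kb (-0.53, edgeR adjusted p = 1.72e-05, named after its value was seen). Of 33 genes tested within 1 Mb of Mnt, 11 were higher and 2 lower. The median over the other genes of the chromosome was -0.03 for Myc and -0.04 for Mycn. The medians of the chromosomes that hold the network genes lay between -0.07 and 0.02, whereas that of chromosome 16, which holds none of them, was 0.19.

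Max (ENSMUSG00000059436, chr12:76937269-76962201, minus strand), the obligate partner of Myc, Mycn and Mycl, was second only to Mycn in WT ASCs. Its FPKM was 22.5, 23.2 and 24.4 in WT and 25.3, 24.6 and 22.9 in knockout samples, and the groups overlapped. The log2 fold change was 0.05 ± 0.06 (SE, edgeR adjusted p = 0.456), and its sign turned with library totals in place of TMM (-0.0033). The summed Myc paralogs therefore stood at 1.95 to 2.33 times the FPKM of Max in WT and at 3.20 to 3.69 times in knockout samples. In knockout ASCs the levels of Myc, 22.9 to 26.3 FPKM, and Max, 22.9 to 25.3 FPKM, overlapped, whereas in WT ASCs Myc lay below Max in every sample.

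Among the genes of the competing repressors, Mnt (ENSMUSG00000000282, chr11:74830920-74845725, plus strand), which is expressed in growing as well as resting cells, was the most abundant. It had 11.8, 11.9 and 13.8 FPKM in WT and 16.3, 17.1 and 15.6 FPKM in knockout samples. The groups did not overlap, and the mean rose 1.31-fold, a log2 fold change of 0.38 ± 0.07 (SE, edgeR adjusted p = 5.13e-04). The call did not hold against a minimum fold of 1.2 (adjusted p = 0.0747). Mnt is 1 of the 3 genes whose promoter window held an E-box, and the other two, Max and Mxd4, did not pass the test.

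Mxi1 (ENSMUSG00000025025, chr19:53310506-53375810, plus strand), also called Mxd2, was lower. Its FPKM was 5.22, 5.55 and 6.04 in WT and 4.66, 4.71 and 5.05 in knockout samples, with a log2 fold change of -0.23 ± 0.07 (SE, edgeR adjusted p = 0.0161). This call rested on few samples, since without WT sample 3 it was -0.17 (adjusted p = 0.0627), without knockout sample 1 it was -0.19 (adjusted p = 0.0711), and without knockout sample 2 it was -0.21 (adjusted p = 0.0553). It was also lost against a minimum fold of 1.2 (adjusted p = 0.861). The exon length listed for Mxi1 is 5619 bases, against 6823 in GENCODE M21.

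Mxd3 (ENSMUSG00000021485, chr13:55325168-55329823, minus strand), the Mxd gene known to be on in dividing cells, stood below Mxi1 and above Mxd1 and Mxd4, at 2.15, 2.82 and 2.67 FPKM in WT and 3.16, 3.34 and 3.80 FPKM in knockout samples. The log2 fold change was 0.42 ± 0.13 (SE, edgeR adjusted p = 0.0170). Here too the call rested on few samples, with adjusted p of 0.0645 without WT sample 1 (log2 fold change 0.32), 0.0764 without knockout sample 3 (0.35) and 0.116 without WT samples 1 and 2 (0.36). It was also lost with the hepatocyte level as a covariate (0.33, adjusted p = 0.108) and against a minimum fold of 1.2 (adjusted p = 0.170). Of its exon bases, 4.43% also lie in Prelid1 on the other strand. The library kit does not mark strand, so reads from these bases cannot be assigned to either gene by strand.

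Mxd1 (ENSMUSG00000001156, chr6:86647042-86669161, minus strand) and Mxd4 (ENSMUSG00000037235, chr5:34173883-34187720, minus strand), linked to cells that stop dividing and differentiate, were the scarcest genes of the network. Mxd1 had 0.961, 1.03 and 0.677 FPKM in WT and 1.10, 0.902 and 0.873 FPKM in knockout samples, a log2 fold change of 0.12 ± 0.16 (SE, edgeR adjusted p = 0.568). Mxd4 had 0.413, 0.450 and 0.308 FPKM in WT and 0.342, 0.367 and 0.507 FPKM in knockout samples, a log2 fold change of 0.06 ± 0.20 (SE, edgeR adjusted p = 0.834). With 66 to 214 reads per sample, neither showed a difference beyond the spread of its samples, and the sign of both values depended on single samples.

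The 5 repressor genes summed to 20.5 to 23.5 FPKM in WT and 25.6 to 26.4 FPKM in knockout samples. Mnt made up 54.8 to 58.8% of this sum in WT and 60.5 to 64.7% in knockout samples, while the share of Mxi1 was 25.4 to 25.6% and then 17.8 to 19.5%. The summed Myc paralogs were 2.08 to 2.55 times the repressor sum in WT and 3.16 to 3.44 times in knockout samples.

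Mga (ENSMUSG00000033943, chr2:119897228-119969581, plus strand) had 17.5, 17.8 and 17.1 FPKM in WT and 18.5, 17.9 and 18.4 FPKM in knockout samples. The groups did not overlap, but the difference was small, with a log2 fold change of 0.07 ± 0.05 (SE), and it did not pass the edgeR test (adjusted p = 0.263).

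By mean FPKM the order in WT ASCs was Mycn, Max, Mga, Myc, Mnt, Mycl, Mxi1, Mxd3, Mxd1 and Mxd4. The neighbours Myc (11.9 to 15.1 FPKM) and Mnt (11.8 to 13.8 FPKM) overlapped there. By its mean, Myc stood second in knockout ASCs, ahead of Max and Mga, and the order was otherwise kept.

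**Figure D3:**
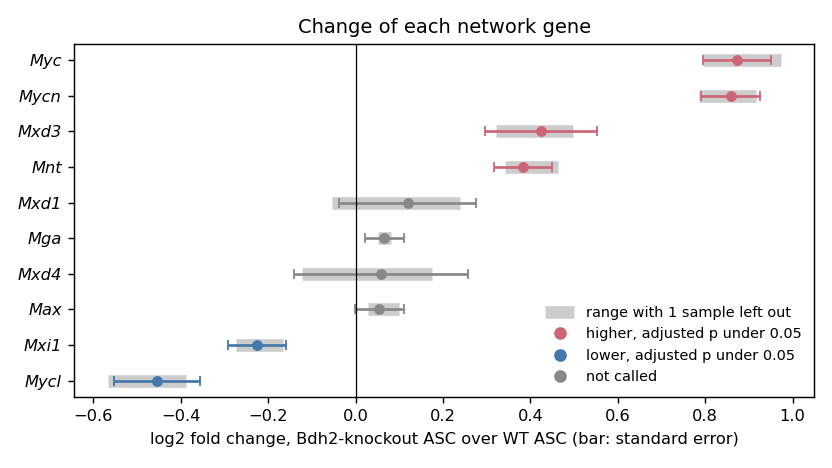
Log2 fold change of each network gene, Bdh2-knockout over WT ASCs, with its standard error as a bar and, in grey, the range of the values obtained without any 1 of the 6 samples. Myc (0.87) and Mycn (0.86) lie far to the right of the others, Mycl (-0.45) and Mxi1 (-0.23) lie below 0, and the grey ranges of Mxd1 and Mxd4 cross 0.

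The genes around the network were described by lists of its partners, regulators and targets. Beside each count, 21.0% of all genes tested were called higher and 20.8% lower, and the median of all genes was -0.01. These lists were compiled by hand with earlier results of these data known, so their counts describe them and are not independent evidence of a direction.

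Among 26 genes that act on Myc expression or Myc protein stability, 13 were higher and 3 lower, and their log2 fold changes had a median of 0.18. Tcf7l1, the Wnt pathway's repressive TCF factor in pluripotent cells, rose the most, from 27.0, 23.2 and 29.6 CPM to 56.2, 62.6 and 56.7 CPM (log2 fold change 1.13 ± 0.08 SE, edgeR adjusted p = 3.82e-07). Bin1, a Myc-interacting adaptor (0.73), and Gsk3b, a kinase that phosphorylates Myc (0.48), were higher too. Usp28, a deubiquitinase that stabilizes Myc, was lower in every knockout sample, with 155, 171 and 170 CPM in WT and 114, 115 and 120 CPM in knockout samples (-0.50 ± 0.05 SE, adjusted p = 1.30e-05). Mapk3, encoding ERK1, was also lower (-0.28), as was Pvt1. Of the ubiquitin ligase genes, Fbxw7 (0.25), Skp2 (0.26) and Huwe1 (0.22) were higher, while Fbxl14 (-0.02) and Trim32 (0.01) did not pass the test. Of the genes downstream of Wnt, Lef1 was higher (0.44) while Axin2 (0.10) and the LIF effector Stat3 (0.05) did not pass the test. These ligase, Wnt and LIF genes were named after their values were seen.

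Gsk3b lies on chromosome 16, where 44.7% of the 494 genes tested were higher and the median was 0.19. Without the genes of that chromosome, 10 of 23 genes of this list were higher and the median was 0.12. What lies behind the level of chromosome 16 was not tested.

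Of 27 genes of Myc coactivators and partners, 17 were higher and 2 lower, with a median of 0.18. Epc1 (0.73) and Epc2 (0.64), subunits of the NuA4 acetyltransferase complex, rose from 20.5 ± 0.933 and 35.8 ± 0.252 CPM to 34.0 ± 2.84 and 55.6 ± 2.15 CPM (SD, n = 3). The largest rise was that of Crebbp (0.75), an acetyltransferase gene on chromosome 16. Ccnt1 (-0.17) and Ccnt2 (-0.15), the cyclin partners of Cdk9 in elongation, were slightly lower. Both of these calls were lost without the WT samples 1 and 2, where the values were -0.12 and -0.11 (adjusted p = 0.130 and 0.158). That of Ccnt1 was also lost without WT sample 2 (adjusted p = 0.0557) or knockout sample 2 (0.0645), and that of Ccnt2 without any 1 of 5 samples (0.0600 to 0.118). Without the WT samples 1 and 2 the list held 12 called genes in place of 19. Without the chromosome 16 genes, 15 of 25 were higher and 2 lower.

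The genes of the Sin3 and deacetylase corepressors that Mxd and Mnt recruit numbered 17, of which 4 were higher, a share near that of all genes, and 1 was lower. The median was -0.00. Sin3a (-0.04), Hdac1 (0.03) and Hdac2 (-0.00) did not pass the test. Brms1 (0.37), Ing1 (0.22) and Sap18 (0.19) were higher, and Ing2 (-0.22) was lower, with an adjusted p of 0.0505 without knockout sample 2. Ncor1 (0.18) was the fourth that was higher, named after its value was seen. Of the exon bases of Brms1, 79.0% lie in another annotated gene, so its counts are uncertain, and the Sap18 call was lost without the WT samples 1 and 2 (0.12, adjusted p = 0.155).

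In the parallel branch of Mlx, which responds to glucose, 1 of 5 genes was higher. Mlx (0.00), Mlxip (0.00), Mlxipl (-0.08) and Arrdc4 (0.13) did not pass the test, and Txnip, an inhibitor of thioredoxin and glucose uptake, rose from 128 ± 13.96 to 166 ± 15.6 CPM (SD, n = 3; log2 fold change 0.37 ± 0.08 SE, edgeR adjusted p = 0.00248). Of the exon bases of Txnip, 19.4% lie in a gene on the other strand.

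Of the 15 genes listed for PRC1.6, the complex of Mga, 6 were higher, 0 lower, and the median was 0.07. With edgeR 1 of them, Cbx3, had an unadjusted p under 0.05 and a negative value, DESeq2 and limma-voom called 0 lower, and library totals in place of TMM gave 2 lower. Ehmt2, encoding the histone H3 lysine 9 methyltransferase G9a, rose from 185, 190 and 206 CPM to 266, 257 and 273 CPM (log2 fold change 0.45 ± 0.05 SE, edgeR adjusted p = 2.85e-05). L3mbtl2 (0.32), a reader subunit with 17.2% of its exon bases in a gene on the other strand, and Rybp (0.30) were higher as well. Pcgf6 (-0.00), the subunit that defines this Polycomb complex, did not pass the test, nor did Rnf2 (0.02).

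The germline genes that Mga and Max are known to hold down in embryonic stem cells did not move as a block. Of 23 tested, 5 were higher and 3 lower, shares of 21.7% and 13.0%, and the median was 0.19. Taf7l, a germ cell relative of a general transcription factor subunit, was at 3.50, 4.16 and 4.23 CPM in WT and 11.8, 8.76 and 9.81 CPM in knockout samples (log2 fold change 1.35 ± 0.14 SE, edgeR adjusted p = 9.12e-06). Mael (0.63), of the piRNA pathway, and Ddx4 (0.52), the germ cell RNA helicase Vasa, were also higher. Meioc (-0.47), Dmc1 (-0.41) and Stag3 (-0.28), which act in meiosis, were lower. These 3 calls were lost without the WT samples 1 and 2, at values of -0.35, -0.26 and -0.16 (adjusted p = 0.0746, 0.237 and 0.131), where 4 genes of the list were called. That of Dmc1 was also lost without WT sample 2 (adjusted p = 0.0524) or knockout sample 2 (0.0511). The other genes that were higher, named after their values were seen, were Slc25a31 (1.74), a germ cell ATP carrier at 1.05 CPM in WT and 3.56 CPM in knockout ASCs, and Sycp3 (0.47), of the synaptonemal complex.

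E-boxes were common in this list, in 12 of 23 promoter windows, against 11.5% of the tested genes with a window. The window of Asz1, a gene that was not tested, is among the 23. The list was chosen for repression by Mga and Max, so this share is not independent evidence of their action. All 5 of the genes that were higher had one, as had 1 of the 3 that were lower and 6 of the 14 that did not pass the test. The windows of the named genes are shown because their germline role and the shared E-box are what Mga and Max are known to act on.
Taf7l: accctcttatacCACGTGacagaactcgcc
Mael: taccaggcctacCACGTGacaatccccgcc
Ddx4: ggcgtccgcccgCACGTGcagccgtttaag
Stag3: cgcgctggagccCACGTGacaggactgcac
Capitals mark the E-box and the stretches read in the direction of the gene. They lie at chrX:134476522-134476551 (minus strand), chr1:166238950-166238979 (minus), chr13:112652322-112652351 (minus) and chr5:138280327-138280356 (plus), and the E-boxes began 49, 223, 29 and 170 bases before the start. Stag3, which fell, holds an E-box as do Taf7l, Mael and Ddx4, which rose.

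Ribosome biogenesis genes, the classic Myc-activated group, were mostly higher, with 30 of 47 higher, 1 lower and log2 fold changes with a median of 0.23. With library totals in place of TMM the count was 27 higher and 2 lower, with a median of 0.17. Grwd1, a ribosome assembly chaperone, rose from 98.9, 89.2 and 108 CPM to 136, 150 and 145 CPM (log2 fold change 0.54 ± 0.07 SE, edgeR adjusted p = 4.99e-05). Ppan (0.51) and Utp20 (0.50), which act in the processing of the large and the small ribosomal subunit, rose with it. Genes of RNA polymerase I and its factor were higher as well, namely Polr1a (0.40), Polr1b (0.33) and Ubtf (0.38), and of the abundant nucleolar genes Ncl (0.17) was higher while Npm1 (-0.08), Fbl (0.09) and Dkc1 (-0.07) did not pass the test. These 7 genes were named after their values were seen. Imp3 (-0.14) was the gene called lower, and it lost its call when any of 5 samples was left out (adjusted p = 0.0580 to 0.108) and without the WT samples 1 and 2 (-0.13, adjusted p = 0.153).

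E-boxes were found in 12 of 43 windows of this list, in 9 of 28 genes that were higher and in 3 of 13 that did not pass the test. Those of Grwd1 and Utp20 lie just after the start.
Grwd1: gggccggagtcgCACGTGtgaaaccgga
Utp20: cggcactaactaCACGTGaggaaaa
These stretches lie at chr7:45830740-45830767 and chr10:88826765-88826789, both on the minus strand.

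The cell cycle and translation targets of Myc were mostly higher, with 16 of 28 higher, 5 lower and a median of 0.17. Id2 (0.91), an inhibitor of differentiation factors, Plk1 (0.65), a mitotic kinase, and Ccnd1 (0.58), encoding cyclin D1, rose the most. Of the exon bases of Ccnd1, 23.4% lie in a gene on the other strand. The genes for the activator E2Fs that drive S phase went the other way for E2f1, which had 66.0, 64.6 and 68.1 CPM in WT and 50.3, 51.3 and 51.5 CPM in knockout samples (log2 fold change -0.38 ± 0.05 SE, edgeR adjusted p = 6.53e-05), and for E2f2 (-0.30), but not for E2f3 (0.30, named after its value was seen). Tert (-0.37), the catalytic subunit of telomerase and a known Myc target, was lower in every knockout sample. Ccnd2 (-0.25) and Eef1e1 (-0.16), named after their values were seen, were the other genes called lower. Without the 2 genes on chromosome 16, 14 of 26 were higher.

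The metabolic targets were divided. Of 37, 13 were higher and 7 lower, and the median of 0.04 turned to -0.01 with library totals in place of TMM. Fasn (0.60), the fatty acid synthase, Odc1 (0.40), the rate-limiting enzyme of polyamine synthesis, and Umps (0.39), of pyrimidine synthesis, were higher. Among the nutrient importers, the glutamine carrier Slc1a5 was lower, at 302, 330 and 301 CPM in WT against 199, 193 and 202 CPM in knockout samples (log2 fold change -0.65 ± 0.05 SE, edgeR adjusted p = 1.17e-06). Tfrc, the transferrin receptor that imports iron, fell from 987 ± 85.6 to 635 ± 13.4 CPM (SD, n = 3; log2 fold change -0.64 ± 0.06 SE, adjusted p = 3.74e-06), against the median of its chromosome 16. Mthfd2 (-0.51), of mitochondrial folate metabolism, was lower as well. Umps also lies on chromosome 16, and without its 3 genes 11 of 34 were higher and 6 lower.

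Of 19 genes known to be repressed by Myc, 8 were lower, 3 were higher and the median was -0.19. Gadd45b (-1.01), a stress response gene, Cdkn1c (-0.76), encoding the cyclin-dependent kinase inhibitor p57, and Col1a1 (-0.62), a collagen gene, fell the most. Hexim1, an inhibitor of the elongation kinase Cdk9, went against the list, from 86.9, 76.7 and 86.9 CPM to 155, 158 and 151 CPM (log2 fold change 0.89 ± 0.06 SE, edgeR adjusted p = 2.38e-07), and Thbs1 (0.23) was higher too, a call that was lost without the WT samples 1 and 2 (0.16, adjusted p = 0.247), without WT sample 1 (adjusted p = 0.118) and without knockout sample 1 (0.0823) or 2 (0.110). Ndrg1 (0.34), whose groups overlapped, was the third that was higher, named after its value was seen. Without those 2 samples 7 genes of the list were called in place of 11. Col1a1 is also a fibroblast marker, and the summed CPM of 8 fibroblast genes was 31.9 to 36.1 in WT and 23.9 to 29.2 in knockout samples, a move whose part in this list was not tested. Of the exon bases of Cdkn1c, 30.7% lie in a gene on the other strand.

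**Figure D4:**
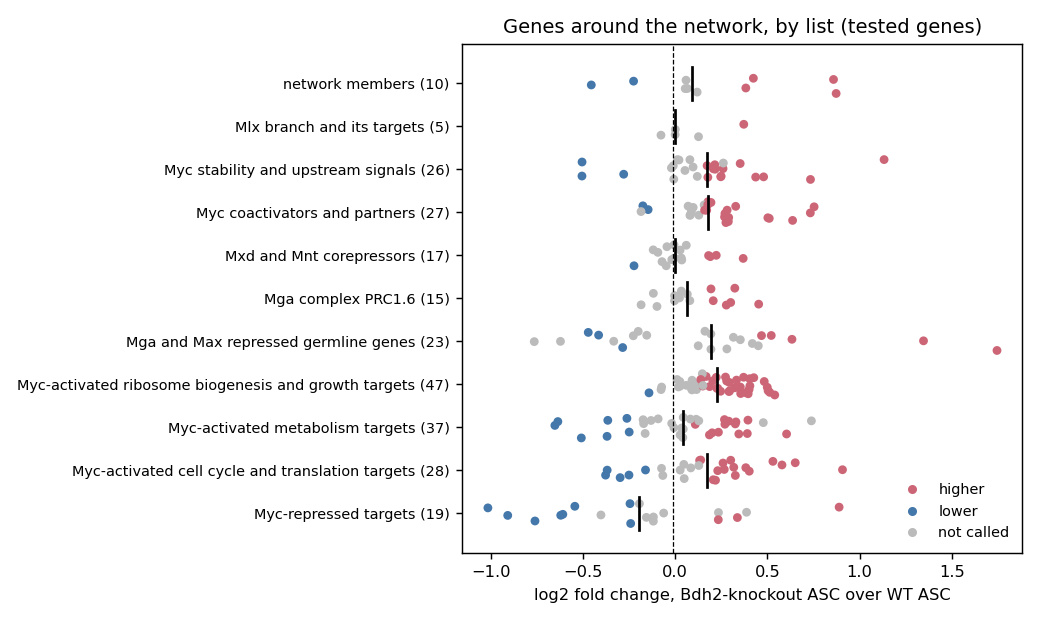
Log2 fold change, Bdh2-knockout over WT ASCs, of every tested gene of each list (number in brackets), coloured by call, with a bar at the list's median and a dashed line at the median of all genes tested (-0.01). Ribosome biogenesis genes lie mostly to the right (median 0.23), the Myc-repressed list has its median at -0.19, and the metabolism and germline lists spread to both sides.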

How the data were processed

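Total RNA was sequenced after an Illumina TruSeq RNA library preparation, a kit that does not mark strand. The authors removed adaptors and reads rich in low-quality bases, aligned the rest with HISAT2 2.0.5 to GRCm38/mm10 and counted them per gene with FeatureCounts. They deposited raw counts per gene, with gene coordinates and lengths. The annotation release, strand setting and treatment of reads with several matches are not given in the sources used here.

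The 10 genes and all gene lists were chosen with earlier results of these data known. Counts of 3 WT and 3 knockout samples were compared with edgeR 4.0.16 (R 4.3.3; TMM, filterByExpr, quasi-likelihood test), without covariates, with Benjamini-Hochberg adjustment over all 16758 genes tested and a threshold of 0.05. FPKM were computed from TMM-scaled CPM and the listed lengths. In each list up to 3 called genes per direction were named by log2 fold change among those with a mean of at least 5 CPM and no overlap between genotypes, and for Myc and Mycn the 3 closest profiles. No 2 samples of a genotype agreed within sampling noise (chi-square per gene 4.14 to 9.80). The scripts were tested on simulated data. Alternatives were DESeq2 1.42.0, limma-voom 3.58.1, other scalings and filters, a hepatocyte covariate, a replicate block, a minimum fold of 1.2 and leaving out samples; leaving out WT samples 1 and 2 was chosen after seeing the data. Promoters came from RefSeq windows (GRCm38.p6), exon overlaps from GENCODE M21, which holds 99.4% of the gene IDs.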

Additional observations from a re-analysis of the deposited data

How the results depend on the processing

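Myc and Mycn kept direction and call under all 16 alternatives run, with log2 fold changes of 0.70 to 0.97 and 0.75 to 0.92. With 4 network genes higher and 2 lower, DESeq2, limma-voom, the other scalings and filters and the replicate block gave the same counts. Tested against a minimum fold of 1.2, 2457 genes were called in place of 6996, with 2 network genes, 0 of the Mlx branch, 5 upstream of Myc, 5 coactivators, 0 corepressors, 1 of PRC1.6, 4 germline, 10 ribosome biogenesis, 6 metabolism, 7 cell cycle and 6 Myc-repressed genes. Without WT samples 1 and 2, which leaves 1 WT sample assumed to vary like the knockout samples, 4342 genes were called, with 12 coactivators, 4 germline and 7 Myc-repressed genes. Leaving out 1 sample at a time gave 5604 to 7312 calls and 5 or 6 network genes, and 2 genes of the Mlx branch without WT sample 3.

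The sign turned for genes that did not pass the test, namely for Max with library totals (-0.0033) and without WT samples 1 and 2 (-0.0036), for Mxd1 without WT sample 3 (-0.053, in a range of -0.053 to 0.24 with 1 sample left out), and for Mxd4 without WT sample 3 (-0.097) or knockout sample 3, in a range of -0.12 to 0.17. The cause was not tested. Among the named genes of the lists, the calls of Sap18 and Thbs1 were lost with library totals, that of Imp3 with DESeq2, and those of Ccnt1, Ccnt2, Sap18, Imp3 and Thbs1 with the hepatocyte covariate. Library totals in place of TMM moved the split of all calls from 3518 higher and 3478 lower to 2731 and 4451, and the median of all genes from -0.01 to -0.07.

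Samples with the same number did not all deviate together (r = -0.15, 0.12 and 0.27), and pairs with different numbers ranged from -0.36 to 0.32. With 3 samples per genotype, these values cannot settle whether samples with the same number were prepared together. With the replicate block, 6452 genes were called, 3235 higher and 3217 lower, and of the named genes Ccnt2 and Imp3 lost their call.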
